A study of Mus musculus with 40 samples.

Results

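The mouse Cyp3a genes encode the cytochrome P450 subfamily that oxidises a large part of the drugs, steroids and bile acids that pass through the liver. The 9 members described here were Cyp3a11, Cyp3a13, Cyp3a16, Cyp3a25, Cyp3a41a, Cyp3a41b, Cyp3a44, Cyp3a57 and Cyp3a59. They were taken by gene symbol from the 32544 gene entries of a liver RNA-seq count table. The table also listed 1 Cyp3a pseudogene, Cyp3a63-ps, which is no member and had 11 reads in all mice together.

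The livers were those of C57BL/6 males raised germ-free, that is without microbes, and were taken at postnatal day 64. Delta-valerobetaine (VB), a trimethylated amino acid derivative made by gut bacteria, or vehicle was given for 6 weeks. The mice ate a Western diet or a control diet. This gave 4 groups of 5 mice: Western diet with VB, Western diet with vehicle, control diet with VB, and control diet with vehicle. All groups were germ-free, so no group shows Cyp3a levels with a microbiota, and the labels give no dose, no collection time and no composition of either diet. The labels do not say whether any mice shared a cage or litter, so p-values measure the spread between these mice.

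CYP3A enzymes sit in the endoplasmic reticulum and take electrons from cytochrome P450 oxidoreductase, encoded by Por. Their genes are textbook targets of the nuclear receptors PXR (Nr1i2) and CAR (Nr1i3), which bind DNA with RXR and respond to drugs, bile acids and steroids. In liver the family is made mainly by hepatocytes near the central vein, and several members follow the circadian clock through the PAR bZIP factors Dbp, Tef and Hlf. Cyp3a11 is the main form of adult mouse liver and the usual mouse counterpart of human CYP3A4. Cyp3a16 is known as a fetal and neonatal form, and Cyp3a41a, Cyp3a41b and Cyp3a44 as forms of female liver. Cyp3a13 is known from intestine as well as liver.

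Each mouse was represented by the sum of 2 lane files of its library, with 16315342 to 24566686 counts per mouse. Levels are given as CPM, reads scaled to a common library size, on library sizes scaled by TMM factors. Hepatocyte markers summed to between 39025 and 64079 CPM in every mouse. Of 6 enterocyte markers, Alpi was at 0 in all mice and Vil1, Lct and Sis averaged at most 0.102 CPM, while Fabp2 averaged 78.4 to 210 CPM and Apob, which hepatocytes also make, 1625 to 1998 CPM. Of 5 pancreatic acinar markers, Amy2a2 was at 0 in all mice and Cpa1, Prss2 and Pnlip averaged at most 0.009 CPM, while Cela1 averaged 20.3 to 41.9 CPM. Fabp2 was called for diet in vehicle mice (1.42, edgeR adjusted p = 1.35e-05). Cela1 was called for VB on the Western diet (0.86, edgeR adjusted p = 0.00186) and for diet in vehicle mice (-1.04, edgeR adjusted p = 6.44e-05). For mouse 1 of the Western diet VB group, 1 of its lane files carries the treatment label vehicle while both titles say VB. It was kept as a VB mouse, and values without it are given where it matters. Mouse 4 of the Western diet vehicle group had 4.62% of its counts on mitochondrial genes, against 1.99% to 3.33% in all other mice. Major urinary protein genes took 15.8% to 25.2% of counts in Western diet VB mice, against 9.53% to 12.7% in Western diet vehicle mice and 6.25% to 13.7% on the control diet. Library names differ in form between the diets, so diet and a handling batch that followed the names cannot be told apart.

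The members lie on chromosome 5 of GRCm38, each with 13 exons in its GENCODE transcript. Cyp3a11 (ENSMUSG00000056035.8) spans 145854426 to 145879964 on the minus strand. It belongs to a cluster of 8 members between 145345279 and 146113287, a stretch of 0.768 Mb. Cyp3a25 (145977194 to 146009618, minus strand) and Cyp3a59 (146079257 to 146113287, plus strand) are neighbours at one end of it, and Cyp3a57 (145345279 to 145390926, plus strand) lies at the other end. Cyp3a13 (137892932 to 137921619, minus strand) stands alone, 7.42 Mb away, and contains the processed pseudogene Gm15502, which had 5 reads in all mice together.

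By coding sequence the cluster splits into groups of near copies. Cyp3a25 and Cyp3a59 were 97.5% identical in their coding bases, and Cyp3a57 was 93.9% identical to Cyp3a25. Cyp3a41a and Cyp3a41b were 99.9% identical, and Cyp3a11 was 95.2% identical to Cyp3a41a and 94.9% to Cyp3a44. Cyp3a11 and Cyp3a25 were only 76.1% identical, and Cyp3a13 shared at most 76.9% with any other member. Reads from near copies can be assigned to the wrong member. Of all 50-base windows of the Cyp3a59 transcript, 27.98% also occurred in another member, as did 26.8% for Cyp3a25, 14.7% for Cyp3a11, 98.6% for Cyp3a41a and 0% for Cyp3a13. How such reads were counted is not given in the sources used, and the family sum is given beside the members.

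The promoters show how close these copies are upstream of their start sites. They run from 250 bases before to 50 bases after the start, 5′ to 3′ along the gene, from RefSeq on GRCm38.p6, where all 9 members were matched by symbol. Cyp3a11 is shown as the most abundant member (chr5:145879805-145880104, minus strand) and Cyp3a41a as a near copy with almost no reads (chr5:145720087-145720386, minus strand). Cyp3a25 is shown with its near copies Cyp3a59 and Cyp3a57 (chr5:146009569-146009868, minus strand; chr5:146079008-146079307, plus strand; chr5:145345019-145345318, plus strand). In the first 3 sequences capitals mark the nuclear receptor hexamers AGGTCA and AGTTCA and the HNF4 element CAAAGTCCA on either strand. In Cyp3a59 and Cyp3a57 capitals mark bases that do not match Cyp3a25 in a global alignment.
Cyp3a11: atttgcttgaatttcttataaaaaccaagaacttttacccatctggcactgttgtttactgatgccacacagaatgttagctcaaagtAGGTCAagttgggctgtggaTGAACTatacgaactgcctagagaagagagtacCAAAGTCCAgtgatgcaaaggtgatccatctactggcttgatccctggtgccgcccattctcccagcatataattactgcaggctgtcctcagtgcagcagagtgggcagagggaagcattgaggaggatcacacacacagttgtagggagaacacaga
Cyp3a41a: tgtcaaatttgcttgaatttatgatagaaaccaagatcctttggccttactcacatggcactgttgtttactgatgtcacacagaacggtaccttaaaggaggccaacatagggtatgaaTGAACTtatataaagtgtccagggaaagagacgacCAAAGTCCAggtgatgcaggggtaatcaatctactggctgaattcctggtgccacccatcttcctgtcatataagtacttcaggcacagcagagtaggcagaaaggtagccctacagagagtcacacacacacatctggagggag
Cyp3a25: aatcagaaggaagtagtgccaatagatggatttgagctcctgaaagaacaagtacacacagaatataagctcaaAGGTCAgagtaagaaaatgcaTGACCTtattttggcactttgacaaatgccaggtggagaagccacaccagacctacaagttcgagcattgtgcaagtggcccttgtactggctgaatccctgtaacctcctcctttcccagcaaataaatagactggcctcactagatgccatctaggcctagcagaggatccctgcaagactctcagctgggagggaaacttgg
Cyp3a59: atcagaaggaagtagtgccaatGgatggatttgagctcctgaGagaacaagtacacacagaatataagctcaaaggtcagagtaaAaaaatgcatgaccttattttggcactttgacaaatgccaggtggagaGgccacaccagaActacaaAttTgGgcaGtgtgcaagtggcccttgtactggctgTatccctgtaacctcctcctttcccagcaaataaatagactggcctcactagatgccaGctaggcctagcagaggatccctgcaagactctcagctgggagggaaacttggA
Cyp3a57: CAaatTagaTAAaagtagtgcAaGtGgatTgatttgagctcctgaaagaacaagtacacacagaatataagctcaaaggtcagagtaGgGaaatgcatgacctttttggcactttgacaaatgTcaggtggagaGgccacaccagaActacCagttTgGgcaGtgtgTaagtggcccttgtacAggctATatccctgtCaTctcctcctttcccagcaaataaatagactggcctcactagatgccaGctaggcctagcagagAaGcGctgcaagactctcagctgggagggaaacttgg

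Over these 300 bases the Cyp3a59 promoter was 96.0% identical to that of Cyp3a25, with 12 bases unmatched, and the Cyp3a57 promoter 90.3%, with 29 unmatched. The Cyp3a11 promoter stood further from its near copies, at 74.7% identity to Cyp3a41a and 78.3% to Cyp3a16. The element CAAAGTCCA, the letters bound by HNF4, was found in 4 of 9 members (Cyp3a11, Cyp3a16, Cyp3a41a and Cyp3a41b) and in 0.477% of 27025 promoters. In Cyp3a11 it lay at -109 to -101 from the RefSeq start. The GENCODE span of Cyp3a11 begins further upstream, at 145879964, and so includes these letters. AGTTCA was found in 3 members (Cyp3a11, Cyp3a41a, Cyp3a41b) and in 14.02% of all promoters. AGGTCA, searched after the promoters had been read, was found in 5 members (Cyp3a11, Cyp3a25, Cyp3a44, Cyp3a57, Cyp3a59) and in 16.04% of promoters. Cyp3a25, Cyp3a57 and Cyp3a59 each held it once on either strand. The D-box letters TTATGTAA and TTACGTAA, the STAT letters TTCNNNGAA, a direct repeat of AGTTCA with a gap of 3 bases and an everted repeat of it with a gap of 6 bases were in 0 of 9 members. They occurred in 0.955%, 0.107%, 8.47%, 0% and 0.007% of promoters. Both strands were searched, and the repeats contain AGTTCA itself. These matches are letters in a window, not binding sites.

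Of the 9 members, 4 had enough reads to be tested: Cyp3a11, Cyp3a25, Cyp3a13 and Cyp3a59, with 605229 reads over the 20 mice. The other 5 had 125 reads in all. Cyp3a44 had 42, Cyp3a57 35, Cyp3a41a 31, Cyp3a16 17 and Cyp3a41b 0, and no mouse had more than 8 reads of any of them. Most single counts were within the limit of 3 that a count of 0 allows, or 0.215 CPM in the shallowest library. That limit covers counting error only. The highest counts passed it, at 8 for Cyp3a57, 7 for Cyp3a41a, 6 for Cyp3a44 and 5 for Cyp3a16. With so few reads no fold is given for these members. Cyp3a41a and Cyp3a41b are nearly the same sequence, so the reads listed for Cyp3a41a and the 0 of Cyp3a41b cannot be assigned with certainty. Cyp3a57 stood at up to 0.399 CPM, although its promoter and coding sequence are close to those of Cyp3a25, which reached 511 CPM.

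Per kilobase of transcript, Cyp3a11 was the most abundant member on average in every group. It averaged 253 ± 92.2 CPM per kilobase in Western diet VB mice, 737 ± 247 in Western diet vehicle mice, 377 ± 27.9 in control diet VB mice and 332 ± 63.5 in control diet vehicle mice (SD, n = 5 each). Cyp3a25 came next, at 174 ± 38.4 CPM per kilobase in Western diet VB mice, 227 ± 29.3 in Western diet vehicle mice, 153 ± 11.1 in control diet VB mice and 136 ± 18.6 in control diet vehicle mice. Cyp3a13 averaged between 51.5 and 59.5 CPM per kilobase and Cyp3a59 between 3.52 and 13.6. In 1 mouse, number 5 of the Western diet VB group, Cyp3a11 was below Cyp3a25, at 0.914 times its level per kilobase.

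**Figure D1:**
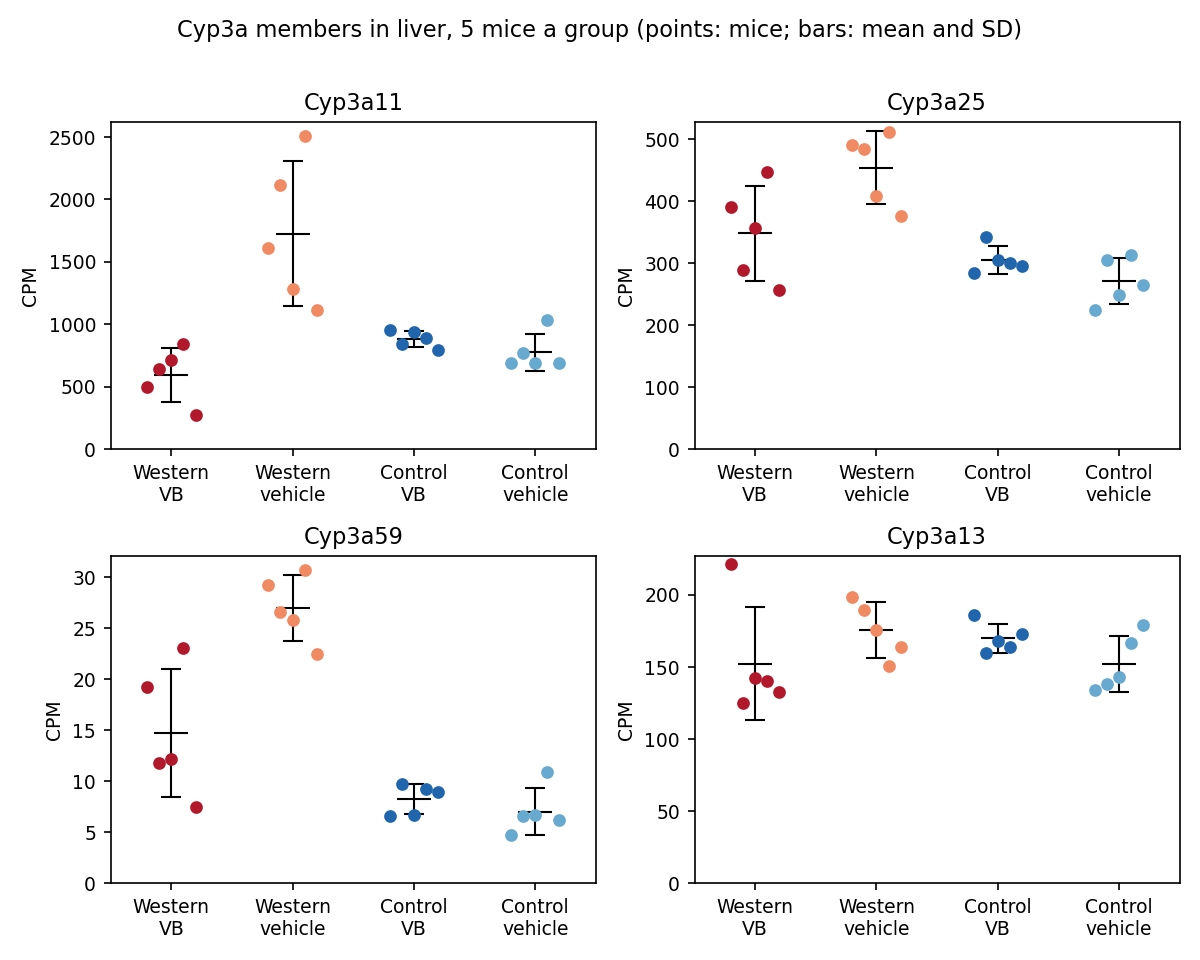
CPM of the 4 tested Cyp3a members (y axis, from 0) in each mouse of the 4 groups (x axis); points are mice and bars the mean and SD of 5. Cyp3a11 lies at 839 CPM or less in all 5 Western diet VB mice and at 1118 CPM or more in all 5 Western diet vehicle mice.

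The first question was what VB did to the family on the Western diet. Cyp3a11 was 2.91-fold lower with VB and Cyp3a59 fell as well, while Cyp3a25 and Cyp3a13 did not pass the test. Cyp3a11 had 497, 640, 713, 839 and 276 CPM in the 5 Western diet VB mice, against 1613, 2115, 1280, 2507 and 1118 CPM in the 5 Western diet vehicle mice. Each VB mouse lay below each vehicle mouse. The mean was 593 ± 216 CPM in VB mice and 1727 ± 579 CPM in vehicle mice (SD, n = 5). In edgeR's quasi-likelihood test the log2 fold change was -1.54 (SE 0.24, adjusted p = 0.000748). Without the VB mouse of uncertain label it was -1.48 (edgeR adjusted p = 0.00229), and without vehicle mouse 4, the highest, -1.37 (edgeR adjusted p = 0.00281).

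Cyp3a59, the near copy of Cyp3a25, had 19.2, 11.8, 12.2, 23.1 and 7.50 CPM in Western diet VB mice, against 29.3, 26.6, 25.9, 30.8 and 22.5 CPM in Western diet vehicle mice. Of the VB mice, 4 lay below every vehicle mouse, and VB mouse 4 overlapped the lowest of them. The log2 fold change was -0.88 (SE 0.23, edgeR adjusted p = 0.0243). The call was lost when VB mouse 2, 3 or 5 was left out (edgeR adjusted p = 0.0641, 0.0609 and 0.0560), with the direction kept.

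Cyp3a25, an abundant hepatic form that also metabolises steroids, had 390, 289, 356, 448 and 257 CPM in Western diet VB mice, against 492, 485, 409, 511 and 376 CPM in Western diet vehicle mice. Its groups overlapped, with 3 VB mice below every vehicle mouse. The log2 fold change was -0.38 (SE 0.13) and did not pass the threshold (edgeR adjusted p = 0.0762), but did without VB mouse 4 (-0.49, edgeR adjusted p = 0.0174). It also passed in DESeq2 (adjusted p = 0.0483) and in limma-voom (-0.44, adjusted p = 0.0253). Cyp3a13 had 221, 125, 142, 140 and 133 CPM in Western diet VB mice, against 198, 190, 175, 151 and 164 CPM in Western diet vehicle mice. The highest of all its values was VB mouse 1, the mouse of uncertain label, and the other 4 VB mice lay below every vehicle mouse. Its log2 fold change was -0.21 (SE 0.13, edgeR adjusted p = 0.395) with that mouse and -0.38 without it (edgeR adjusted p = 0.0223).

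Of the 9 members, 2 were lower and 0 higher with VB on the Western diet, where 7.19% of the 12616 genes tested were called, 3.33% higher and 3.86% lower. The members were chosen with these results known, so the count is a description. The family sum was 1128, 1066, 1224, 1451 and 673 CPM in Western diet VB mice, against 2333, 2817, 1891, 3201 and 1681 CPM in Western diet vehicle mice, and the groups did not overlap. Its mean was 2.15-fold lower with VB. Cyp3a11 made up 40.9% to 60.0% of the family's CPM in Western diet VB mice, against 66.5% to 78.3% in Western diet vehicle mice. In bulk liver, fewer cells that make a transcript and less of it per cell cannot be told apart.

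**Figure D2:**
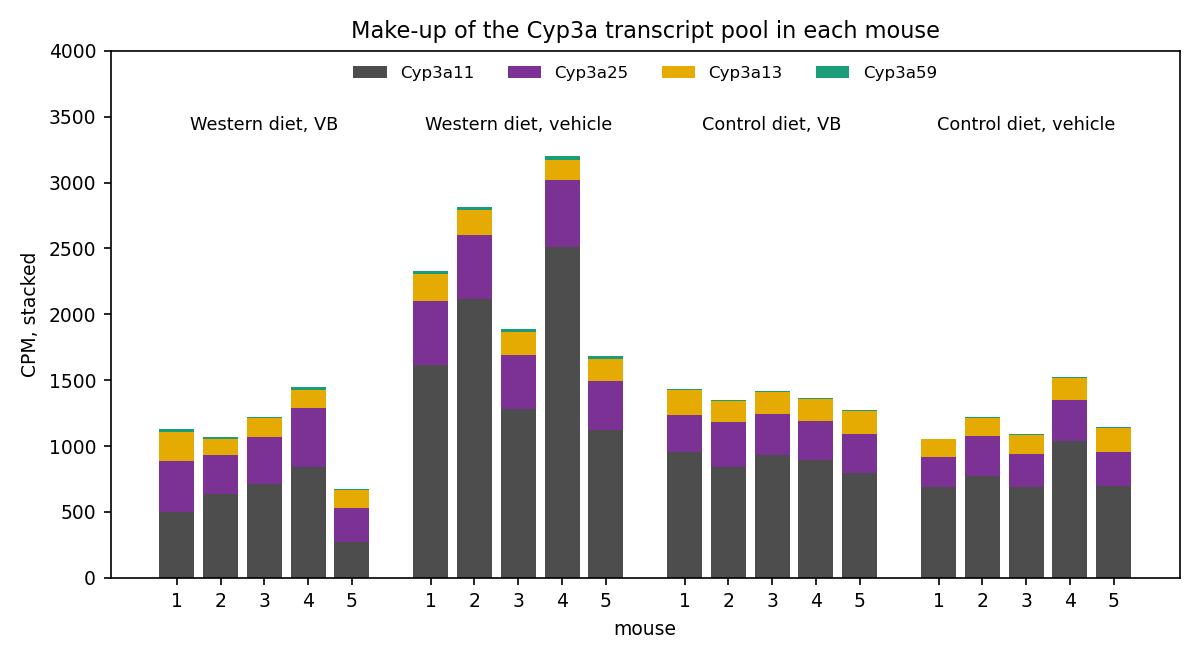
Stacked CPM of the 4 tested members (y axis, from 0) in each mouse (x axis, mice 1 to 5 of each group). The Western diet vehicle bars stand between 1681 and 3201 CPM, above those of all other groups, and most of the extra height is Cyp3a11.

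The next comparison was VB against vehicle on the control diet. No tested member passed, and all 4 fitted changes were small. Cyp3a11 had 953, 839, 935, 893 and 797 CPM in control diet VB mice, against 692, 772, 691, 1036 and 694 CPM in control diet vehicle mice. All 5 VB mice lay between the 2 highest vehicle mice, since vehicle mouse 4 stood far above the others. The log2 fold change was 0.19 (SE 0.23, edgeR adjusted p = 0.818).

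Cyp3a25 had 284, 343, 305, 300 and 296 CPM in control diet VB mice, against 225, 305, 249, 313 and 265 CPM in control diet vehicle mice. Cyp3a13 had 186, 160, 168, 164 and 173 CPM in the VB mice, against 134, 139, 143, 166 and 179 CPM in the vehicle mice. Cyp3a59 had 6.61, 9.69, 6.71, 9.22 and 8.91 CPM in the VB mice, against 4.70, 6.57, 6.66, 10.9 and 6.22 CPM in the vehicle mice. The groups overlapped for all 3 genes, and the log2 fold changes of 0.17, 0.16 and 0.23 did not pass (edgeR adjusted p = 0.669, 0.688 and 0.780). With 0 of the 4 tested members called, 0.151% of all genes tested were called in this comparison, 0.0555% higher and 0.0951% lower. These were 19 genes, while 1354 had an unadjusted edgeR p under 0.05. No tested member had an unadjusted edgeR p under 0.05, and DESeq2 and limma-voom also called 0 members. The family sum averaged 1368 ± 61.1 CPM in control diet VB mice and 1208 ± 189 CPM in control diet vehicle mice (SD, n = 5).

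Whether the VB effect depended on diet was tested as a difference of the VB effects, Western minus control diet. For Cyp3a11 the difference was -1.73 on the log2 scale (SE 0.33, edgeR adjusted p = 0.00327). It was called with each of the 20 mice left out in turn, between -1.88 and -1.55. For Cyp3a59 it was -1.10 (SE 0.34, edgeR adjusted p = 0.0487), close to the threshold. That call was lost in 16 of the 20 fits that each leave out 1 mouse, from any group, with an edgeR adjusted p of at most 0.0991. Cyp3a25 had a difference of -0.56 (SE 0.18, edgeR adjusted p = 0.0670) and Cyp3a13 of -0.37 (SE 0.18, edgeR adjusted p = 0.249). For Cyp3a25 the difference passed in DESeq2 (adjusted p = 0.0435) and limma-voom (adjusted p = 0.0203). Without Western diet VB mouse 4 or Western diet vehicle mouse 5 Cyp3a25 was called (edgeR adjusted p = 0.0194 and 0.0474), and without Western diet VB mouse 1 so was Cyp3a13 (-0.54, edgeR adjusted p = 0.0170). Thus 2 members were lower and 0 higher, where 7.64% of all genes tested were called, 3.63% higher and 4.01% lower.

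**Figure D3:**
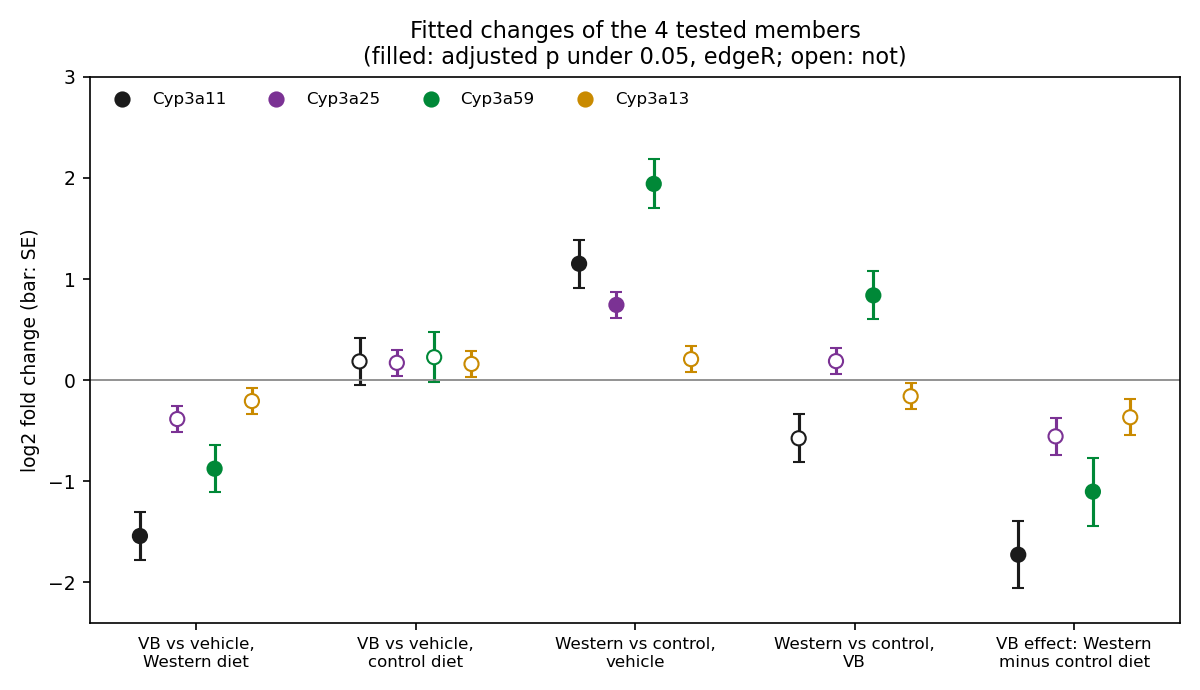
Fitted log2 fold change (y axis, bars SE) of the 4 tested members in the 5 comparisons (x axis); filled points had an edgeR adjusted p under 0.05. Cyp3a11 is at -1.54 for VB on the Western diet and at 1.15 for Western against control diet in vehicle mice, and no member is filled for VB on the control diet.

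The Western diet in vehicle mice raised 3 of the 4 tested members: Cyp3a11, Cyp3a25 and Cyp3a59. The CPM of each mouse in these groups are those given above. All 5 Western diet vehicle mice had more of each of the 3 genes than any control diet vehicle mouse. The share of all genes tested whose groups separate in this way was not computed. The lowest Cyp3a11 value on the Western diet was 1118 CPM, against a highest of 1036 CPM on the control diet. Cyp3a11 was 2.22-fold higher on the Western diet (log2 fold change 1.15, SE 0.24, edgeR adjusted p = 0.00182). Cyp3a59 averaged 27.0 ± 3.20 CPM on the Western diet and 7.002 ± 2.30 CPM on the control diet (SD, n = 5), 3.86-fold higher. It had the largest fitted change of the tested members here, at 1.94 (SE 0.24, edgeR adjusted p = 8.71e-06). Cyp3a25 averaged 455 ± 58.6 CPM on the Western diet and 271 ± 37.1 CPM on the control diet, a log2 fold change of 0.74 (SE 0.13, edgeR adjusted p = 0.000296).

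Cyp3a13 did not pass in this comparison, at 0.21 (SE 0.13, edgeR adjusted p = 0.303), and its groups overlapped. With 3 members higher and 0 lower, the background was 16.5% of all genes tested called, 8.92% higher and 7.59% lower. The family sum averaged 2385 ± 631 CPM on the Western diet and 1208 ± 189 CPM on the control diet, with no overlap. Leaving out any of the 20 mice kept all 3 calls.

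In VB mice the diets differed less for the family. Cyp3a59 alone was called, higher on the Western diet at 0.84 (SE 0.24, edgeR adjusted p = 0.0382), where 6.44% of all genes were called, 3.23% higher and 3.22% lower. Its mean was 14.8 ± 6.27 CPM in Western diet VB mice and 8.23 ± 1.46 CPM in control diet VB mice (SD, n = 5), with 4 of 5 Western diet mice above every control diet mouse. The call was lost without Western diet VB mouse 1 or 4 (0.73 and 0.62, edgeR adjusted p = 0.0965 and 0.124) and without any 1 of the 5 control diet VB mice. Cyp3a11 ran the other way, with 4 of 5 Western diet VB mice below every control diet VB mouse, but it did not pass (-0.58, SE 0.24, edgeR adjusted p = 0.154). Cyp3a25 and Cyp3a13 were at 0.19 and -0.16 (edgeR adjusted p = 0.419 and 0.488). This comparison shares its Western diet VB mice with that of VB on the Western diet, and its control diet VB mice with that of VB on the control diet.

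By mean level the order of the groups was not the same for each member. For Cyp3a11 it ran Western diet vehicle, control diet VB, control diet vehicle, Western diet VB, and only the first step was free of overlap. For Cyp3a25 and Cyp3a59 it ran Western diet vehicle, Western diet VB, control diet VB, control diet vehicle, and each pair of neighbours overlapped. For Cyp3a13 the means lay between 152 and 176 CPM and every neighbouring pair overlapped. Spread between mice also differed. The SD of Cyp3a11 was 36.5% of the mean in Western diet VB mice, against 33.5% in Western diet vehicle mice, but 7.40% in control diet VB mice and 19.2% in control diet vehicle mice.

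The balance between members shifted with the groups. Per kilobase, Cyp3a11 stood at 0.914 to 1.89 times Cyp3a25 in Western diet VB mice, against 2.54 to 4.18 times in Western diet vehicle mice. On the control diet it stood at 2.09 to 2.86 times with VB and 2.16 to 2.83 times with vehicle, so the Western diet VB mice lay below all other mice. The ratio of Cyp3a59 to Cyp3a25 per kilobase was 0.0293 to 0.0517 in Western diet VB mice, against 0.0551 to 0.0636 in Western diet vehicle mice. It was 0.0221 to 0.0309 in control diet VB mice and 0.0210 to 0.0349 in control diet vehicle mice. The Western diet vehicle mice lay above all others in this ratio. These ratios are descriptions with no test.

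**Figure D4:**
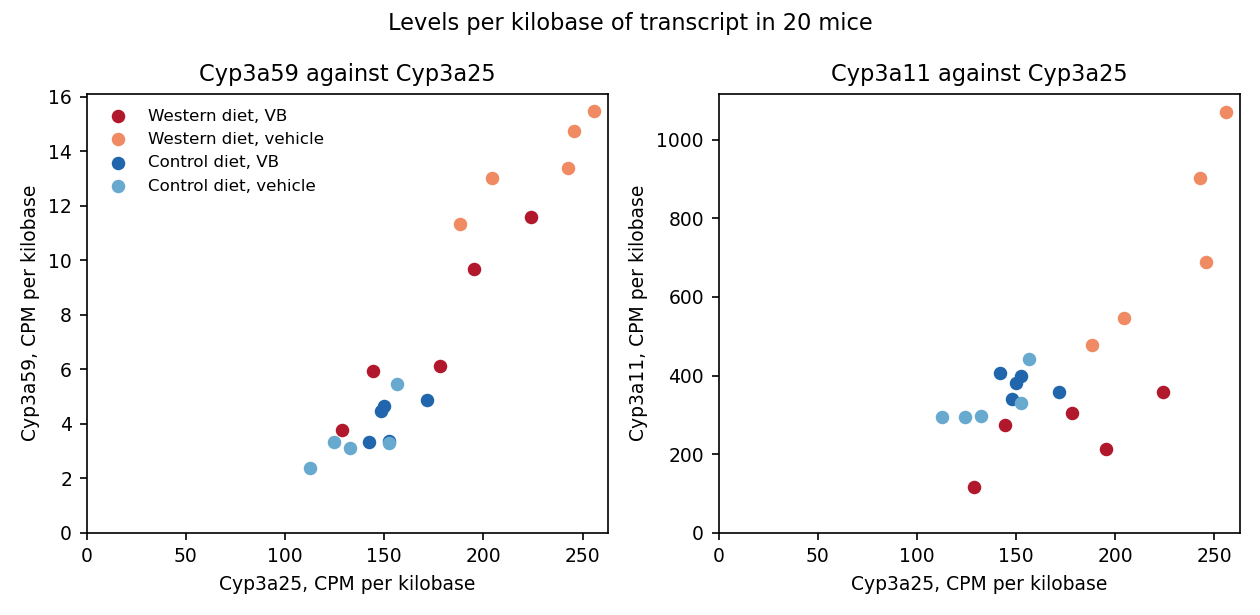
CPM per kilobase of Cyp3a59 (left y axis) and Cyp3a11 (right y axis) against Cyp3a25 (x axes), 1 point for each of 20 mice, coloured by group. On the left the mice form a single rising band; on the right the 5 Western diet VB mice lie below the others at a given Cyp3a25 level, with Cyp3a11 at 0.914 to 1.89 times Cyp3a25.

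Over the 20 mice, log2 CPM of Cyp3a25 and Cyp3a59 had a Pearson r of 0.942, and 0.855 after group means were taken off. The pair shares 24.7% of the 50-base windows of Cyp3a59, and the part of shared reads in this was not tested. Cyp3a11 had an r of 0.701 with Cyp3a25, 0.612 with Cyp3a59 and 0.344 with Cyp3a13. Within groups these were 0.724, 0.612 and -0.009. Among 11203 genes with a mean of at least 1 CPM, those most like Cyp3a11 included Mogat1 at 0.916, Pank1 at 0.914, Decr1 at 0.908 and Ddah1 at 0.907, with 0.812, 0.732, 0.764 and 0.888 within groups. Mogat1 makes diglyceride, Pank1 starts coenzyme A synthesis and Decr1 serves the oxidation of unsaturated fatty acids. Ddah1 breaks down methylated arginine. Most like Cyp3a25 after Cyp3a59 were Hibadh at 0.938 and Bckdha at 0.937 (0.869 and 0.85 within groups), which both act in the breakdown of branched-chain amino acids. Most like Cyp3a59 were Themis at 0.960, known from T cells, Cyp3a25, and the acute phase gene Orm3 at 0.929. Themis and Orm3 were at 0.796 and 0.716 within groups. Cyp3a13 was most like C4bp at 0.841 and Lbp at 0.802, which encode plasma proteins of complement and endotoxin binding, and Suox at 0.798, sulfite oxidase. These 3 genes were at 0.823, 0.84 and 0.745 within groups. All these points share libraries and groups, and they carry no test.

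Receptors that control the family changed in some of the same comparisons. Of 15 tested regulators (16 listed), 2 were lower and 1 higher with VB on the Western diet, with a median log2 fold change of -0.096, against -0.016 over all genes. There 3.86% of all genes tested were lower and 3.33% higher. The shares of all genes called, given above for each comparison, apply to every list below. PXR (Nr1i2) averaged 17.9 ± 2.13 CPM in Western diet VB mice, against 26.2 ± 2.10 CPM in Western diet vehicle mice (SD, n = 5; log2 fold change -0.55, edgeR adjusted p = 0.00379). CAR (Nr1i3) averaged 71.0 ± 17.7 CPM with VB and 114 ± 20.7 CPM with vehicle (-0.68, edgeR adjusted p = 0.0200). The aryl hydrocarbon receptor Ahr rose by 0.45 (edgeR adjusted p = 0.0414). In vehicle mice the Western diet raised 6 regulators and lowered 1, with the fatty acid receptor Ppara at 1.09, the bile acid receptor Nr1h4 at 0.64, the hepatocyte factor Cebpa at 0.33 and Ahr at -0.77 (edgeR adjusted p = 3.83e-05, 0.00648, 0.0205 and 0.000268). Nr1i2 was at 0.36 and passed (edgeR adjusted p = 0.0316), and Nr1i3 was at 0.33 and did not (edgeR adjusted p = 0.221). The list median was 0.33, against 0.0185 over all genes, of which 8.92% were called higher and 7.59% lower. EdgeR called 0 regulators for VB on the control diet and 0 for diet in VB mice, with 6 and 4 at an unadjusted p under 0.05. For the difference of VB effects 4 were lower and 1 higher, with Nr1i2 at -0.54 (edgeR adjusted p = 0.0377) and Nr1i3 at -0.52 (edgeR adjusted p = 0.232).

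Among 14 electron partners and genes of haem supply, 3 were lower and 0 higher with VB on the Western diet (median -0.132). There 3.86% of all genes tested were lower and 3.33% higher. Por, the electron donor of all microsomal P450 enzymes, averaged 401 ± 58.1 CPM in Western diet VB mice, against 777 ± 104 CPM in Western diet vehicle mice (SD, n = 5; -0.95, edgeR adjusted p = 0.00110). Alas1, the rate-limiting enzyme of haem synthesis, fell by 1.20 on the log2 scale (edgeR adjusted p = 0.0219). Pgrmc1, a haem-binding membrane protein, fell by 0.42 (edgeR adjusted p = 0.00622). In vehicle mice on the Western diet 2 rose, Por at 1.48 and Alas1 at 1.13, and 2 fell, the cytochrome b5 gene Cyb5b at -0.71 and its reductase Cyb5r3 at -0.45 (edgeR adjusted p = 1.78e-06, 0.0152, 0.000668 and 0.00781). On the control diet Por was at 0.76 with VB and missed the threshold (edgeR adjusted p = 0.0549). Its difference of VB effects was -1.71 (edgeR adjusted p = 0.000182). In VB mice 1 gene of this list, Cyb5b, was called for diet, at -0.50 (edgeR adjusted p = 0.0279).

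Other targets of PXR and CAR differed in both directions. With VB on the Western diet 12 of 26 tested targets (30 listed) were lower and 1 higher, with a median of -0.574, against -0.016 over all genes. Of those genes 3.86% were lower and 3.33% higher. The conjugate exporter Abcc3 was at -1.28, the epoxide hydrolase Ephx1 at -0.63, Cyp2a5 at -0.98 and Cyp2b9 at -6.76 (edgeR adjusted p = 0.00102, 0.00152, 0.00264 and 0.00309). Cyp2b9 averaged 0.346 ± 0.484 CPM in Western diet VB mice, against 39.6 ± 22.4 CPM in Western diet vehicle mice (SD, n = 5). The gene that rose was Cyp1a2, also a target of the aryl hydrocarbon receptor, at 0.48 (edgeR adjusted p = 0.0232), named after its value was seen. In vehicle mice the Western diet raised 5 targets and lowered 7 (median -0.083), with Cyp2a5 at 1.27 but Cyp1a2 at -1.78, Cyp2c55 at -2.18 and Cyp2c29 at -0.92 (edgeR adjusted p = 5.99e-05, 2.13e-09, 2.43e-07 and 0.000121). In VB mice 13 were lower on the Western diet and 0 higher (median -0.476), among them Cyp2c29 at -1.60 and the CAR target Cyp2b10 at -5.52 (edgeR adjusted p = 2.74e-07 and 5.52e-06). EdgeR called 0 for VB on the control diet, with 4 at an unadjusted p under 0.05. For the difference of VB effects 6 were lower and 1 higher (median -0.567), where 4.01% of all genes tested were lower and 3.63% higher.

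**Figure D5:**
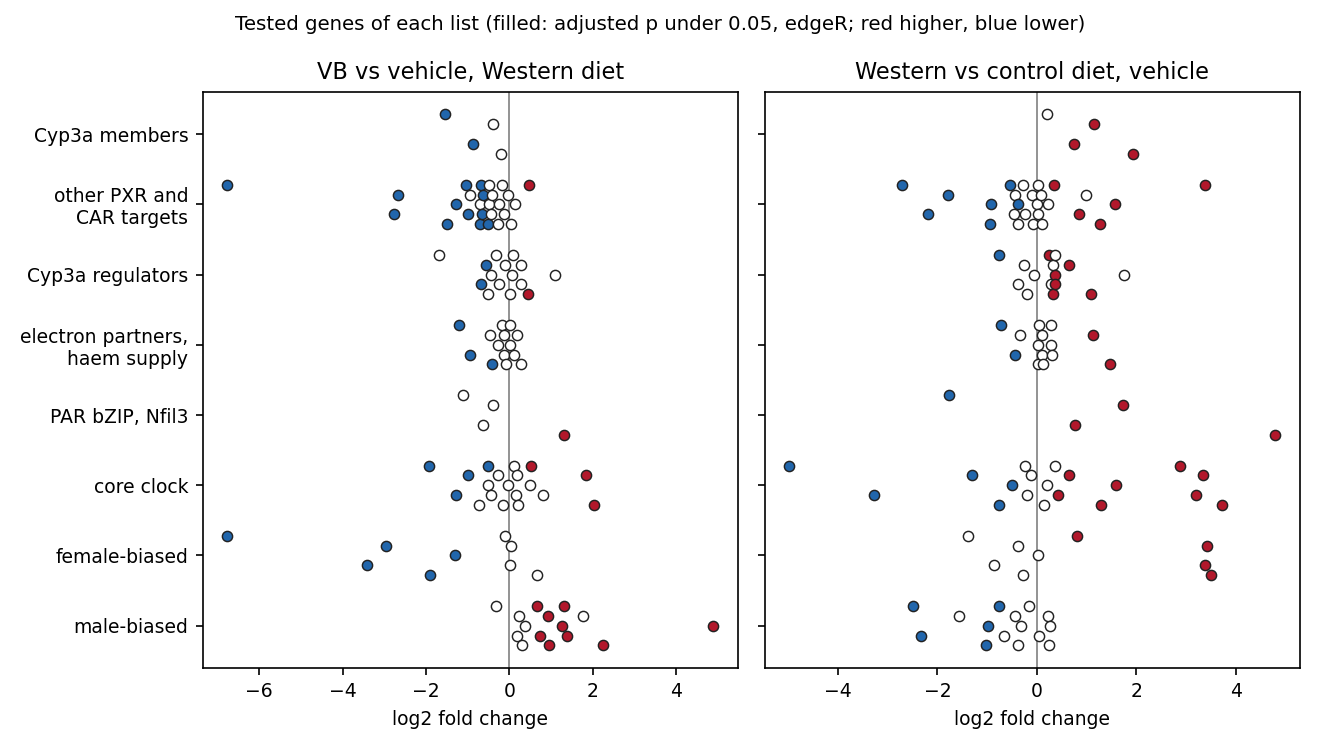
Log2 fold change (x axes) of every tested gene of each list (rows) for VB against vehicle on the Western diet (left) and Western against control diet in vehicle mice (right); filled points had an edgeR adjusted p under 0.05, red higher and blue lower. Cyp3a members are blue or open on the left, with 2 filled, and red or open on the right, with 3 filled; Cyp2b9 is in 2 lists.

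Clock genes differed between the groups in which Cyp3a11 differed. Some also differed between VB and vehicle mice on the control diet, where Cyp3a11 did not pass. The first principal component of 23 clock and PAR bZIP genes, used as a clock score, was -0.240 to 0.754 in Western diet VB mice, against 1.18 to 1.46 in Western diet vehicle mice. It was -0.546 to 0.017 in control diet VB mice and -1.73 to -0.842 in control diet vehicle mice. In vehicle mice the Western diet raised Dbp, Tef and Hlf at 4.80, 1.73 and 0.77 and lowered their rival Nfil3 at -1.76 (edgeR adjusted p = 8.86e-05, 3.69e-06, 0.000227 and 1.20e-07). With VB on the Western diet Nfil3 rose by 1.31 (edgeR adjusted p = 0.000103) and Dbp was at -1.12 without passing (edgeR adjusted p = 0.277). On the control diet VB raised Tef by 1.12 (edgeR adjusted p = 0.0165), and Dbp, at 3.03, and Nfil3, at -0.66, did not pass (edgeR adjusted p = 0.0654 and 0.0812). Of 19 core clock genes 8 were higher and 5 lower on the Western diet in vehicle mice, and 3 higher and 4 lower with VB on the Western diet. With VB on the control diet 1 was higher, Ciart at 2.74, and 1 lower, Npas2 at -1.93 (edgeR adjusted p = 0.0139 and 0.0229). The shares of all genes tested were 8.92% higher and 7.59% lower, 3.33% and 3.86%, and 0.0555% and 0.0951%, in that order of comparisons. With the clock score as a covariate no Cyp3a member was called in any comparison. Cyp3a11 was then at -1.10 (SE 0.40, edgeR adjusted p = 0.439) for VB on the Western diet and at 0.064 (SE 0.80, edgeR adjusted p = 1.00) for diet in vehicle mice. The score separates the groups, so the covariate and the groups share much of their variation. Over all genes that fit called 2 for VB on the Western diet, against 907 without the covariate, and 31 for diet in vehicle mice, against 2083. For diet in VB mice, whose scores overlapped, it called 563, against 813. Cyp3a11 was at -0.79 there, against -0.58 without the covariate, and passed in neither fit.

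Markers of pericentral hepatocytes (8 genes, all passing the filter) summed to 6729 to 8889 CPM in Western diet VB mice, against 9546 to 11754 CPM in Western diet vehicle mice. The range was 7713 to 9578 CPM in control diet VB mice and 5927 to 9695 CPM in control diet vehicle mice. Most of this sum was Cyp2e1, at 5766 CPM in Western diet VB mice, against 8374 CPM in Western diet vehicle mice, and the 8 genes did not move together. With VB on the Western diet 1 was called lower, Cyp2e1, and 1 higher, Cyp1a2. Glul, Axin2 and Lgr5 stood at 0.042, 0.20 and 0.38 without passing (edgeR adjusted p = 0.912, 0.818 and 0.480). Oat, Slc1a2 and Rhbg went the other way, at -0.54, -0.28 and -0.17, and did not pass (edgeR adjusted p of 0.0664 or more). For diet in vehicle mice 2 were called higher, Cyp2e1 and Oat, and 2 lower, Cyp1a2 at -1.78 and Lgr5 at -0.80 (edgeR adjusted p = 2.13e-09 and 0.0420). Periportal markers (7 genes) summed to 8431 to 10031 CPM in Western diet VB mice, against 5845 to 6899 CPM in Western diet vehicle mice and 7900 to 11801 CPM on the control diet. With VB on the Western diet 5 of them were called higher and 0 lower, where 3.33% of all genes tested were higher and 3.86% lower. For diet in vehicle mice 0 were called higher and 4 lower, where 8.92% of all genes tested were higher and 7.59% lower. Adipocyte markers, of which 1 of 5 passed the filter, summed to 5.15 to 48.6 CPM in Western diet VB mice, against 30.3 to 266 CPM in Western diet vehicle mice, and to at most 2.90 CPM on the control diet. This sum was mainly Cfd, at 18.2 CPM in Western diet VB mice, against 167 CPM in Western diet vehicle mice. The other 4 stood the other way on average and under the filter: Adipoq at 2.28 CPM with VB and 0.050 with vehicle, Retn at 1.42 with VB and 0.141 with vehicle, Plin1 at 0.866 with VB and 0.108 with vehicle, and Lep at 0.464 with VB and 0 with vehicle. The part of the clock, of liver zones, and of adipocyte transcripts in the Cyp3a differences was not tested beyond these values and the fit with the clock score. With the major urinary protein genes left out of the library sizes, Cyp3a11 was at -1.54 for VB on the Western diet (edgeR adjusted p = 0.000723) and at 1.14 for diet in vehicle mice (edgeR adjusted p = 0.00194).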

How the data were processed

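RNA of 20 livers was sequenced in 40 lane files, 2 for each mouse. The authors deposited 1 table of unscaled read counts, with genes named by symbol. Libraries were made from Trizol-extracted RNA with a TruSeq kit, per the labels' protocols, and per the submitters' processing notes the build was GRCm38. Which aligner and counter were used, and with which strand mode, is not given in the sources used here. Groups come from the titles, and 1 lane file whose treatment label differs from its title was kept by its title.

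Chi-square per degree of freedom between lanes of a mouse was 1.33 to 1.49, against at least 10.3 between mice of a group, and lanes were summed. Genes were kept by filterByExpr (minimum count 10, minimum total 15), which left 12616 genes with 99.95% of counts. All 4 groups were fitted together with the robust quasi-likelihood model of edgeR 4.0.16 in R 4.3.3 on TMM-scaled counts. Calls were made at an adjusted p under 0.05 (Benjamini-Hochberg, over all genes tested). The fit was tested on simulated counts with known changes. CPM use TMM-scaled library sizes, and log2 CPM a prior count of 2. CPM per kilobase use GENCODE transcript lengths. Counting error is small at these depths for the tested members, and the spread between mice is the larger error.

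Alternatives were DESeq2 1.42.0, limma 3.58.1 (voom with quality weights), other scaling, filters, lanes and fits, and each mouse left out. Named genes were the members, genes from among the called with the 4 smallest p in a list and comparison, 5 fixed genes (Por, Nr1i2, Nr1i3, Dbp, Nfil3) and the genes most like each tested member, of which 1 is not reported here. Members, lists and tests were chosen with earlier results of these data known.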

Additional observations from a re-analysis of the deposited data

Results flagged for a closer look

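The check for a mouse far from its group covered 20 combinations of a group with a tested member or the family sum. About 1 would be marked by chance if they were separate, and 2 were. They are not separate, since the family sum contains the members. In the control diet vehicle group, mouse 4 had 1036 CPM of Cyp3a11 while the other 4 mice lay between 691 and 772 CPM, a gap of 0.765 of the group's range against a limit of 0.710. That mouse also had the highest clock score of its group, at -0.842. In the Western diet VB group, mouse 1 had 221 CPM of Cyp3a13 while the other 4 lay between 125 and 142 CPM, a gap of 0.823 of the range. It is the mouse for which 1 lane file carries the treatment label vehicle. It also had the highest clock score of its group, at 0.754. A link of the clock score to either flagged value was not tested.

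The VB effect differed between diets for 2 members, by a test of the difference itself. The difference of log2 fold changes, Western minus control diet, was -1.73 for Cyp3a11 (edgeR adjusted p = 0.00327) and -1.10 for Cyp3a59 (edgeR adjusted p = 0.0487). For Cyp3a11 all 5 Western diet VB mice lay below all 5 Western diet vehicle mice, and 0 of 5 control diet VB mice lay outside the range of the control diet vehicle mice.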

How the results depend on the processing

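The Cyp3a11 calls for VB on the Western diet, for diet in vehicle mice and for the difference of VB effects held in each alternative but the clock score covariate, and without each mouse. For VB on the Western diet 2 members were called, against 1 when only the groups compared were fitted, 0 with the clock score and 1 to 3 with a mouse left out. For diet in vehicle mice the 3 calls became 0 with the clock score. For diet in VB mice the 1 call, Cyp3a59, became 0 with no filter on low counts, with only the groups compared, with lane 1 files alone or with the clock score, and 0 to 1 with a mouse left out. Limma-voom called Cyp3a11 there in its place (-0.63, adjusted p = 0.0453). The mouse number as a replicate block gave 2 calls, Cyp3a59 and Cyp3a11. Whether the numbers pair the mice is not known. With group means taken off, correlations of same-numbered mice ran from -0.065 to 0.378. Their means by pair of groups were 0.018 to 0.102, against -0.024 to -0.004 for mice of different numbers. The replicate block also called Cyp3a25 for VB on the Western diet (-0.39, edgeR adjusted p = 0.0386) and for the difference (-0.57, edgeR adjusted p = 0.0313). For the difference of VB effects the 2 calls became 4 with limma-voom, 1 with no filter or with lane 2 files alone, 0 with the clock score and 1 to 3 with a mouse left out. DESeq2 and limma-voom also called Cyp3a25 for VB on the Western diet (adjusted p = 0.0483 and 0.0253) and for the difference (adjusted p = 0.0435 and 0.0203).

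In the fit with the clock score 13 of 20 fitted changes turned in sign, none of them called then. These were Cyp3a13 at 0.17 and Cyp3a25 at 0.049 for VB on the Western diet, and Cyp3a11 at -0.25, Cyp3a13 at -0.23, Cyp3a25 at -0.27 and Cyp3a59 at -0.60 for VB on the control diet. For diet in vehicle mice they were Cyp3a13 at -0.75, Cyp3a25 at -0.35 and Cyp3a59 at -0.20, and for diet in VB mice Cyp3a25 at -0.032. For the difference of VB effects they were Cyp3a13 at 0.40, Cyp3a25 at 0.32 and Cyp3a59 at 0.57. The cause was not tested. No other alternative turned a sign. The log2 ratio of the family sum was recomputed under other scalings, lanes, lengths and rows and without each mouse of the groups compared, but not with the clock score or in the other fits. It moved by less than the spread between mice there, from -1.22 to -0.97 for VB on the Western diet and from 0.84 to 1.08 for diet in vehicle mice. Depth does not allow statements on the 5 members with few reads.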

Other observations

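Genes of liver sex differences differed between the groups in these male mice. Of 9 tested genes of female-biased liver (15 listed), 5 were lower and 0 higher with VB on the Western diet, with a median log2 fold change of -1.30, against -0.016 over all genes tested. The peroxisomal transporter Abcd2 was at -1.91, Cyp2a4 at -3.42 and the flavin monooxygenase Fmo2 at -1.30 (edgeR adjusted p = 0.000583, 0.00304 and 0.00389). Cyp2a4 had few reads, at 0.129 ± 0.148 CPM in Western diet VB mice and 1.39 ± 0.772 CPM in Western diet vehicle mice (SD, n = 5). Of 15 genes of male-biased liver 9 were higher and 0 lower, with a median of 0.932. Hsd3b5, a steroid dehydrogenase, was at 1.38, the fatty acid elongase Elovl3 at 1.26, the anion carrier Slco1a1 at 0.67 and complement C8b at 0.93 (edgeR adjusted p = 0.000880, 0.00156, 0.00190 and 0.00192). Of all genes tested 3.33% were higher and 3.86% lower with VB on the Western diet. In vehicle mice on the Western diet 4 female-biased genes were higher and 0 lower, but the list median of 0.022 was close to the 0.0185 of all genes. There 5 male-biased genes were lower and 0 higher, with a median of -0.436, where 8.92% of all genes tested were higher and 7.59% lower. The female forms Cyp3a41a, Cyp3a41b and Cyp3a44 stayed at no more than 7 reads in any mouse of any group, so they could not be set beside these lists.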
